A study of Mus musculus with 12 samples.

Results

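Small RNA pathway and germ granule genes were followed in polysome-bound mRNA of mouse oocytes, the mRNA that sediments with several ribosomes. The 10 genes were taken by symbol: Dicer1 and Drosha, which cut small RNA precursors, the Argonaute genes Ago1, Ago2, Ago3 and Ago4, and the germline genes Piwil2, Mael, Ddx4 and Tdrd1. All 10 were on the array, with 15 of the 21230 probe sets that matched a gene symbol, among 16579 genes in all. Ddx4 and Drosha had 2 probe sets each and Tdrd1 had 4, named for different RefSeq transcripts of a gene, but the probe sets of a gene held identical values on every array. The 15 probe sets are therefore 10 measurements, and transcript forms could not be told apart.

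MicroRNAs (miRNAs) are made in the nucleus, where Drosha with its partner Dgcr8 cuts a hairpin out of a longer transcript, and in the cytoplasm, where Dicer1 trims the hairpin to a short duplex. An Argonaute protein then holds a strand of it and finds target mRNAs by base pairing. Mouse oocytes are known for a further class, the endogenous siRNAs, which Dicer1 cuts from long double-stranded RNA without Drosha and which Ago2, the slicing Argonaute, uses. Rodent oocytes also make a shortened Dicer1 protein from a promoter inside the gene. The third class, the piRNAs, is carried by PIWI proteins such as Piwil2, and silences transposons in germ cells with the help of proteins of the cytoplasmic germ granules, among them Mael, Ddx4 and Tdrd1. The RefSeq hairpin of let-7g (GRCm38.p6, chr9:106178840-106178927, plus strand) is printed to show what the first and second enzyme of the miRNA pathway cut, with the mature 5′ arm of 22 bases in capitals:
Mirlet7g: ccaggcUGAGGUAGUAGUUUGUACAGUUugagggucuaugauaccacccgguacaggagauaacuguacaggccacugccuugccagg

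Per the labels, follicle growth in the mice was started with PMSG, and 48 h after it hCG, a stand-in for the ovulatory hormone, was given. Oocytes at 0 h of hCG were germinal vesicle (GV) oocytes, held in the prophase of meiosis, and oocytes at 14 h were metaphase II (MII) oocytes, the mature eggs. Both stages were taken from wild type and from Areg -/- mice, which lack amphiregulin, an EGF-like ligand of the follicle, giving 4 groups of 3 arrays. All groups carry the strain label C57BL/6J 129Sv, and the sources used here do not give the age of the mice or how many animals or oocytes made up a sample. The titles call the arrays biological replicates without naming animals, so p values weigh a difference only against the spread between these samples.

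Values are log2 intensities, so a difference of 1 is a factor of 2 in intensity, and with array medians of 5.73 to 5.91 a change is relative to the other transcripts. All 9 measured oocyte markers lay above the array's median gene in 3 groups and 8 of them in Areg -/- MII. Of the 16 markers of granulosa and cumulus cells, the cells around the oocyte, 2 or 3 did so in a group. The summed linear intensity of those 16 was 969 to 1161 at GV and 1898 to 2280 at MII in wild type, and 1008 to 1220 at GV and 1195 to 1952 at MII in Areg -/-. Cyp19a1, the aromatase gene, gave most of that sum at MII (means of 8.45 and 10.59 in wild type and 8.81 and 9.91 in Areg -/-), while another granulosa gene, Hsd17b1, was lower at MII (7.60 and 4.76, then 7.69 and 5.30), and the list's median log2 value was 4.42 and 4.47, then 4.58 and 4.78. For 11 measured markers of blood, endothelial, theca and stromal cells the sum was 1334 to 1455, 1700 to 3213, 869 to 1199 and 702 to 1053 in the same order, led by the endothelial gene Pecam1 (9.52, 11.11, 8.58 and 9.06), with a list median of 5.47, 5.22, 4.62 and 5.04. C1qb of that list went the other way and was lower at MII (8.10, 5.42, 8.48 and 5.59). The endothelial genes Cdh5 (3.12, 3.53, 2.89 and 3.64) and Kdr (5.80, 5.37, 4.25 and 4.91) were dimmer than Pecam1. For the oocyte markers the sum was 98237 to 109774, 58127 to 73110, 94737 to 110815 and 61004 to 65665. The arrays at MII had a narrower spread of values, with an interquartile range of 4.37 ± 0.35 at GV and 3.82 ± 0.32 at MII in wild type, and of 4.55 ± 0.14 and 3.58 ± 0.37 in Areg -/- (SD, n = 3 arrays). The 3′ minus 5′ control probe difference, a sign of RNA quality, was 2.00 and 3.23 for Gapdh at GV and MII in wild type and 2.48 and 2.71 in Areg -/-, and 0.36 and -1.17, then 0.05 and -0.77, for Actb. The targeted gene Areg had means of 2.36, 2.72, 2.49 and 2.68 in the same order, below the lower quartile of every array (4.02 to 4.52), so it could not check the genotype labels. The part of these differences in the results below was not tested, apart from fits that include the array spread. The spread largely went with the stage, so such a fit can also take out part of a stage difference. Effects of spread and of stage cannot be told apart by it.

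From GV to MII the 10 genes did not move as a group. Ago3 rose about 5-fold in both genotypes, Drosha and Mael fell, and the other 7 did not pass the test in either genotype. In wild type 1 of 10 rose and 2 fell, beside 8.97% and 12.6% of all genes (21.6% in either direction). In Areg -/- 1 of 10 rose and 2 fell, beside 13.0% and 15.2% (28.2% in either direction), so the share of the 10 genes that changed was close to that of all genes. The median change of the 10 genes was 0.37 in wild type and 0.18 in Areg -/-, and that of all genes was 0.20 and 0.30. The test was limma's, with Benjamini-Hochberg adjustment over all 16579 genes and a threshold of 0.05. Without arrays of unfractionated RNA, more transcript and more of it on ribosomes cannot be told apart, nor can fewer cells of a type relative to others in the sample and less of a transcript per cell.

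**Figure D1:**
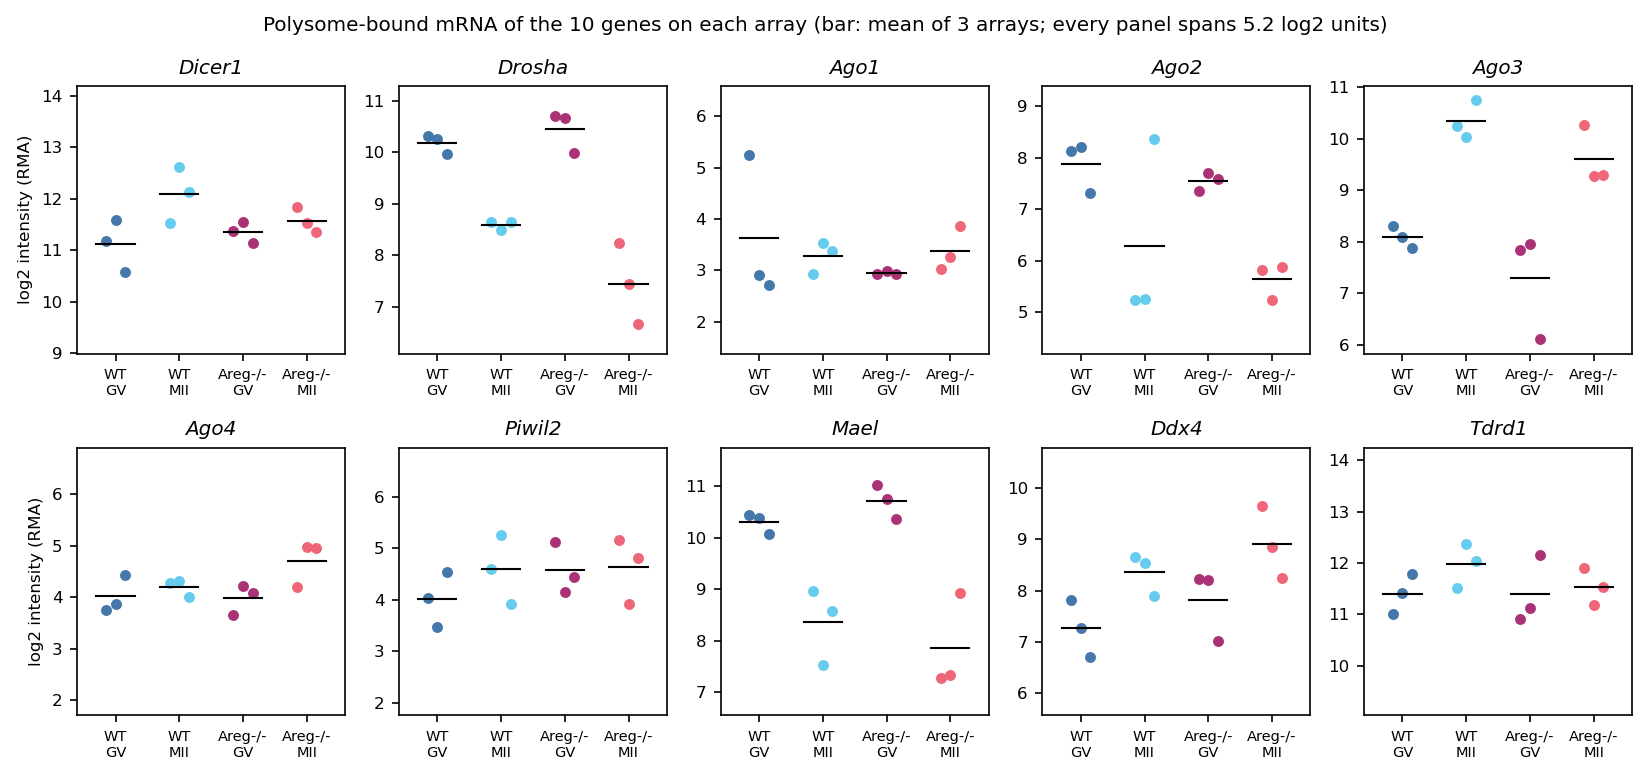
Log2 intensity of each gene on the 12 arrays, 1 panel per gene, with points for arrays, a bar for the mean of 3 arrays and the same height of scale in every panel. The MII arrays lie above the GV arrays for Ago3 and below them for Drosha and Mael in both genotypes, and 1 wild-type MII array of Ago2 (8.36) lies apart from the other two.

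**Figure D2:**
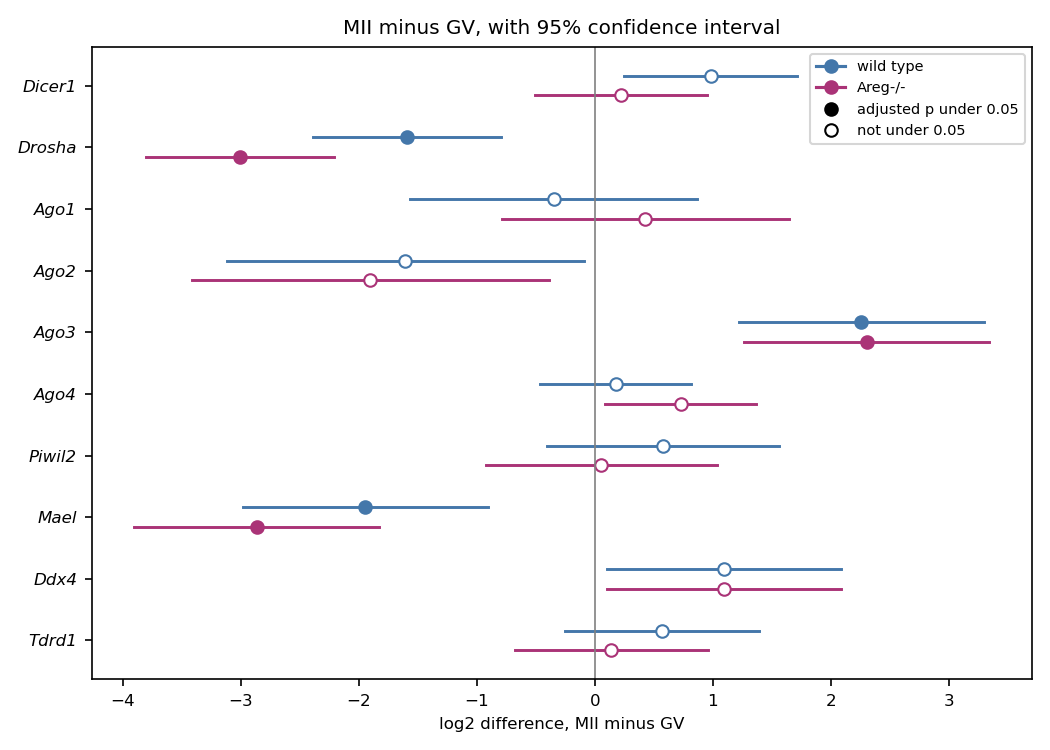
Difference of MII minus GV on the log2 scale for each gene in wild type (blue) and Areg -/- (purple), with limma's 95% confidence interval and filled points where the adjusted p was under 0.05. The filled points are Ago3 to the right of 0 and Drosha and Mael to the left, in both genotypes.

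Drosha, the nuclear enzyme that starts miRNA production, lost polysome-bound mRNA during maturation. In wild type its values were 10.31, 10.27 and 9.97 at GV and 8.65, 8.48 and 8.64 at MII. In Areg -/- they were 10.71, 10.67 and 9.99 at GV and 8.24, 7.43 and 6.67 at MII. The stages did not overlap in either genotype, and the Areg -/- MII arrays were the most widely spread. Drosha fell by 1.59 ± 0.36 in wild type, 3.01-fold (limma SE, n = 3 arrays per group, adjusted p = 0.0089). In Areg -/- it fell by 3.01 ± 0.36, 8.04-fold (adjusted p = 0.00023). When the fit included the array spread the wild-type call was lost (-1.02, adjusted p = 0.078), whereas the Areg -/- call was made under all 22 alternatives (-3.41 to -2.00, the smallest in that fit).

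Dicer1, the enzyme shared by miRNAs and endogenous siRNAs, did not pass the test in either direction. Its wild-type values were 11.18, 11.59 and 10.57 at GV and 11.54, 12.62 and 12.14 at MII. Its Areg -/- values were 11.37, 11.55 and 11.14 at GV and 11.84, 11.53 and 11.36 at MII. The stages overlapped in both genotypes. MII minus GV was 0.98 with a 95% interval of 0.25 to 1.71 in wild type (adjusted p = 0.058) and 0.22 with an interval of -0.51 to 0.95 in Areg -/- (adjusted p = 0.61). The wild-type difference passed under 6 of 22 alternatives, among them the fits without wild-type GV 2 (1.22) and without wild-type MII 1 (1.26). The table does not say which part of the transcript the probes match, so the shortened oocyte form could not be followed on its own.

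The Argonaute genes differed from each other in direction. Ago3 rose, Ago2 was lower at MII on 5 of 6 arrays without passing, and Ago1 and Ago4 lay among the dim probe sets. The RefSeq gene table places Ago3, Ago1 and Ago4 side by side on chromosome 4 with 0 protein-coding genes between them, and of these neighbours Ago3 alone passed the test.

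Ago3 had wild-type values of 8.30, 8.09 and 7.87 at GV and 10.25, 10.04 and 10.75 at MII. In Areg -/- it had 7.84, 7.96 and 6.10 at GV and 10.26, 9.27 and 9.29 at MII. Every MII array was above every GV array of its genotype, and Areg -/- GV 3 was the lowest array of all. Ago3 rose by 2.26 ± 0.47 in wild type, 4.79-fold (SE, n = 3 arrays per group, limma adjusted p = 0.0055), and by 2.31 ± 0.47 in Areg -/-, 4.95-fold (adjusted p = 0.0049). Both calls were made under all 22 alternatives, with ranges of 2.06 to 3.00 and, in Areg -/-, 1.71 to 3.60 (the highest when the fit included the array spread).

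Ago2, the Argonaute that slices its targets, had wild-type values of 8.13, 8.22 and 7.31 at GV and 5.23, 5.25 and 8.36 at MII. Its Areg -/- values were 7.36, 7.69 and 7.58 at GV and 5.82, 5.23 and 5.88 at MII. Wild-type MII 3 was above all GV arrays, while the other 5 MII arrays were below all of them. MII minus GV was -1.60 (95% interval -3.12 to -0.09, adjusted p = 0.13) in wild type and -1.90 (-3.41 to -0.39, adjusted p = 0.059) in Areg -/-, and neither passed the limma test. Without wild-type MII 3 the wild-type difference was -2.64 and passed (adjusted p = 0.00074), and the Areg -/- difference, which that array reaches through the shared estimate of spread, stayed at -1.90 and passed as well (adjusted p = 0.0015). The Areg -/- difference passed under 5 of 22 alternatives in all, among them the fit of the compared groups alone, which uses no wild-type array (-1.90, adjusted p = 0.0046), and the wild-type difference under 1. When the fit included the array spread the differences were -0.73 and -0.37. On the same array Drosha (8.64), Mael (8.58), Dicer1, Ago1 and Tdrd1 lay between their other wild-type MII values. Ago3 (10.75) had its highest wild-type MII value there, and Ddx4 (7.90), Piwil2 (3.92) and Ago4 had their lowest. Why Ago2 stood apart on that array was not tested.

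Ago1 was under the array's lower quartile on 11 of 12 arrays and Ago4 on 8, and neither was above the median gene on any array. Ago1 lay between 2.72 and 3.87 apart from wild-type GV 1, which had 5.25. Its MII minus GV was -0.35 (95% interval -1.57 to 0.87) in wild type and 0.43 (-0.79 to 1.65) in Areg -/-, where the stages did not overlap, and without wild-type GV 1 the wild-type value turned to 0.46. Ago4 lay between 3.64 and 4.97, and its MII minus GV was 0.18 (-0.46 to 0.82) in wild type and 0.73 (0.09 to 1.37, limma adjusted p = 0.080) in Areg -/-. Ago4 turned to -0.34 and -0.17 in the fit with the array spread. In Areg -/- it passed under 2 of 21 alternatives, with array weights (0.80, limma adjusted p = 0.042) and without Areg -/- MII 1 (0.99, adjusted p = 0.028).

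The germline genes were also divided, with Mael lower at MII, Ddx4 higher without passing, and Tdrd1 and Piwil2 overlapping between stages. Upstream sequence was read for 8 of the 10 genes, 3 of them germline genes, and is shown for those 3 because all of them hold the same letters. The letters CACGTG, an E-box known as a binding site of MAX and MYC family factors, were searched on both strands and found in the 250 bases before an annotated start of Mael, Ddx4 and Tdrd1, and not in the windows of Dicer1, Drosha, Ago1, Ago3 and Ago4. Of all 32851 such windows 6.02% held them. That share is per window, not per gene, and covers windows of any CpG content, while CACGTG itself holds a CpG. It is therefore not a matched background for these genes. Of the other motifs searched on both strands, TAATTG, a NOBOX homeodomain site, was in 0 of the genes' windows (7.17% of all), and TTCCCGC, an E2F site, was in 1, that of Ddx4 (3.82% of all), where it does not overlap CACGTG. The printed windows hold 18, 31 and 22 CpG dinucleotides, beside a median of 6 over all windows. The windows without CACGTG of Ago1 (26 and 28), Ago3 (27), Drosha (33), Dicer1 (39) and Ago4 (46) also lie above that median. Tdrd1 has 3 annotated starts, of which the first and second have overlapping windows with these letters and the third, with 3 CpG dinucleotides, has a window without them; the second is printed. The windows of the 3 genes are printed 5′ to 3′ from RefSeq (GRCm38.p6), with CACGTG in capitals. They lie at chr1:166238745-166238994 (minus strand) for Mael, chr13:112652311-112652560 (minus) for Ddx4 and chr19:56826025-56826274 (plus) for Tdrd1:
Mael: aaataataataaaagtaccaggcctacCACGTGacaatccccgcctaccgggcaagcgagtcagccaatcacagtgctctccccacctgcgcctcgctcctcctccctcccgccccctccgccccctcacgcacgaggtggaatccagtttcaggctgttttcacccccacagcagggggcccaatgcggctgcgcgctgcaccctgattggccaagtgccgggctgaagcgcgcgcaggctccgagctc
Ddx4: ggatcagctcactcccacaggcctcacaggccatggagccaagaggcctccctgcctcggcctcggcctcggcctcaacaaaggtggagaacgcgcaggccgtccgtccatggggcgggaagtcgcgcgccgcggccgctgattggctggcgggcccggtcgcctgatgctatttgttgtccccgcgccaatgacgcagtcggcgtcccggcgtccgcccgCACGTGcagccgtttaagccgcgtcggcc
Tdrd1: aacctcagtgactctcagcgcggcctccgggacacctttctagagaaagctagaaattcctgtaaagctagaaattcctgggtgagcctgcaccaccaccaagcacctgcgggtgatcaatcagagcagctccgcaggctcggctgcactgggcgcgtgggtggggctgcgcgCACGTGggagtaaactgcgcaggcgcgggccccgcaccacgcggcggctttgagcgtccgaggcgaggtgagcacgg
A match is a description of the letters, and the values of the 3 genes follow.

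Mael, a piRNA pathway protein of the germ granule, had wild-type values of 10.44, 10.38 and 10.07 at GV and 8.96, 7.53 and 8.58 at MII. The Areg -/- arrays had 11.03, 10.75 and 10.36 at GV and 7.28, 7.33 and 8.93 at MII. All 6 MII arrays were below all 6 GV arrays. Mael fell by 1.94 ± 0.47 in wild type, 3.85-fold (SE, n = 3 arrays per group, limma adjusted p = 0.012), and fell by 2.86 ± 0.47 in Areg -/-, 7.28-fold (adjusted p = 0.0015). Both calls were lost when the array spread was fitted too (-1.72 and -2.46, adjusted p = 0.084 and 0.088), and under the other 21 alternatives both were made.

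Ddx4, the germline RNA helicase also called VASA, had wild-type values of 7.81, 7.27 and 6.71 at GV and 8.65, 8.53 and 7.90 at MII. Its Areg -/- values were 8.22, 8.21 and 7.02 at GV and 9.65, 8.84 and 8.25 at MII. Within each genotype every MII array was above every GV array, with the lowest MII array (8.25) close to the highest GV array (8.22) in Areg -/-. MII minus GV was 1.10 in both genotypes (95% intervals 0.10 to 2.09), which did not pass (limma adjusted p = 0.11 in wild type and 0.086 in Areg -/-). After a further quantile normalisation it was 1.44 and 1.64 and passed in both (adjusted p = 0.019 and 0.0094), and it passed in wild type when the array spread was fitted (1.70, adjusted p = 0.041) and in both with the replicate number as a block (adjusted p = 0.010 and 0.0099).

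Tdrd1, a Tudor-domain protein that binds methylated PIWI proteins, lay between 10.92 and 12.37 on all arrays. Its MII minus GV was 0.57 (95% interval -0.25 to 1.39) in wild type and 0.14 (-0.68 to 0.96) in Areg -/-. Piwil2, a PIWI protein, lay between 3.46 and 5.25, under the array's lower quartile on 4 of 12 arrays and above the median gene on none. Its MII minus GV was 0.58 (-0.40 to 1.56) and 0.06 (-0.93 to 1.04). The stages of both genes overlapped in both genotypes, and neither passed under any of the alternatives.

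Between the genotypes, 0 of the 10 genes passed at GV, at MII or for the interaction, which is the stage change in Areg -/- minus that in wild type. Of all genes 0.0% passed at GV, 0.0603% at MII and 0.0% for the interaction. At an unadjusted p under 0.05, limma counted 0 of the 10 at GV, 1 at MII and 1 for the interaction, against 3.55%, 6.18% and 4.66% of all genes. Drosha was the gene in both cases. At MII all 3 Areg -/- arrays (6.67 to 8.24) were below all 3 wild-type arrays (8.48 to 8.65), a difference of -1.14 ± 0.36 (SE, unadjusted p = 0.0092, limma adjusted p = 0.53). Its interaction was -1.42 ± 0.51 (95% interval -2.54 to -0.29, unadjusted p = 0.018, adjusted p = 0.94), so the larger loss in Areg -/- did not hold after adjustment. Over the alternatives the MII difference ran from -1.54 (without Areg -/- MII 1) to -0.40 (without the 3 arrays of narrowest spread).

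**Figure D3:**
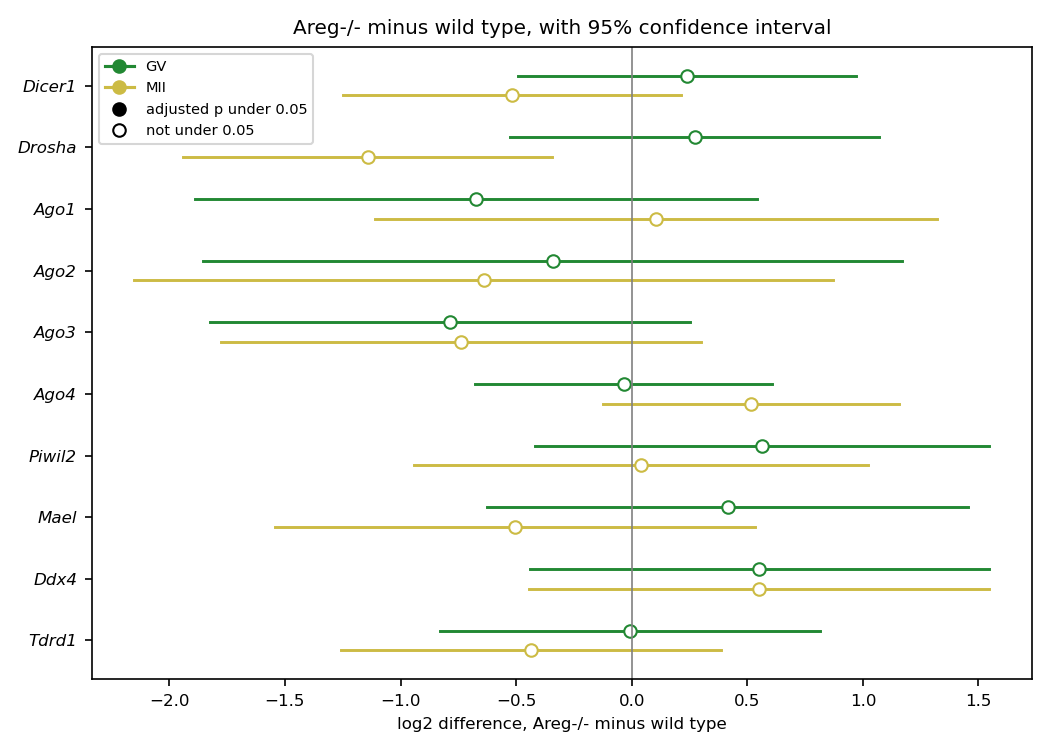
Difference of Areg -/- minus wild type on the log2 scale at GV (green) and MII (yellow) with limma's 95% confidence interval, where an open point is a gene whose adjusted p was not under 0.05. All points are open, and the interval of Drosha at MII (-1.94 to -0.34) is the one that leaves out 0.

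For the other 9 genes the intervals of both genotype differences held 0. At GV the differences ran from -0.78 (Ago3, 95% interval -1.82 to 0.25) to 0.56 (Piwil2, -0.42 to 1.55). At MII they ran from -0.74 (Ago3, -1.78 to 0.30) to 0.55 (Ddx4, -0.44 to 1.55). Dicer1 was 0.24 (-0.49 to 0.97) at GV and -0.52 (-1.25 to 0.21) at MII. Mael was 0.41 (-0.62 to 1.45) and -0.50 (-1.54 to 0.53). With intervals of this width, differences of about a factor of 2 could go unseen for most of the genes. The test adjusted over all genes asks for more than an interval without 0. Drosha at MII, 2.21-fold lower in Areg -/-, did not pass it (limma adjusted p = 0.53). Ago2 at MII was -0.64 and turned to 0.40 without wild-type MII 3, and Ago1 at GV was -0.67 and turned to 0.14 without wild-type GV 1.

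Further genes of the miRNA and siRNA pathway were read from a list of 31, of which 28 were measured. Of the 28, 8 rose and 5 fell in wild type, beside 8.97% and 12.6% of all genes, with a median of -0.11 beside 0.20 for all genes. In Areg -/- 7 rose and 5 fell, beside 13.0% and 15.2%, with a median of 0.37 beside 0.30. The rises included RNA helicases that work with Drosha, Ddx5 (2.38 ± 0.28 in wild type and 1.64 ± 0.28 in Areg -/-) and Ddx17 (2.23 ± 0.25 and 1.34 ± 0.25). Lin28a, which blocks let-7 maturation, rose by 1.76 ± 0.28 and 2.39 ± 0.28, and Dis3l2, which degrades uridylated let-7 precursors, rose by 2.10 ± 0.48 and 1.93 ± 0.48. Tnrc6b, a GW182 scaffold of Argonaute silencing, rose by 1.43 ± 0.32 and 0.97 ± 0.32, while Tnrc6a (-0.17 and -0.20) and Tnrc6c (0.29 and 0.46) did not pass. Ipo8, a nuclear import factor that also binds Argonautes, rose by 1.47 ± 0.20 and 1.46 ± 0.20. Ddx6, a helicase of processing bodies, rose by 1.67 ± 0.44 in wild type and was 1.23 ± 0.44 in Areg -/-, which did not pass (limma adjusted p = 0.058). The adjusted p of these called values lay between 0.00016 and 0.042 in limma.

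The losses in that list included both subunits of the translin complex, a nuclease that removes the passenger strand. Tsn fell by 3.65 ± 0.45 in wild type and fell by 3.29 ± 0.45 in Areg -/-, and Tsnax fell by 2.18 ± 0.45 and fell by 3.30 ± 0.45. Zswim8, a ubiquitin ligase factor that acts on Argonautes, fell by 2.29 ± 0.40 and fell by 1.71 ± 0.40, the latter not called after a further quantile normalisation (-1.14). Ran, the GTPase of hairpin export, fell by 1.40 ± 0.30 and fell by 1.60 ± 0.30. Srrt, which delivers transcripts to Drosha, fell by 1.30 ± 0.38 in wild type and was -0.28 in Areg -/- (limma adjusted p = 0.57). Snd1, a nuclease of silencing complexes, was -1.17 in wild type (adjusted p = 0.061) and fell by 2.21 ± 0.40 in Areg -/-. The Drosha partner Dgcr8 was -0.96 and -0.93 (limma adjusted p = 0.11 and 0.096), the exporter Xpo5 -0.36 and -1.36 and the Dicer1 partner Prkra -0.33 and -0.81, none of which passed. In the fit with the array spread the calls of Dis3l2 in both genotypes, of Srrt in wild type and of Ddx5, Tnrc6b, Tsn, Ran and Snd1 in Areg -/- were lost. Leaving out single arrays ended the calls of Ddx6 (without wild-type GV 2, MII 1 or MII 3), Dis3l2 in Areg -/- (without Areg -/- GV 2), and Srrt in wild type and Tnrc6b in Areg -/- (without any of several arrays).

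**Figure D4:**
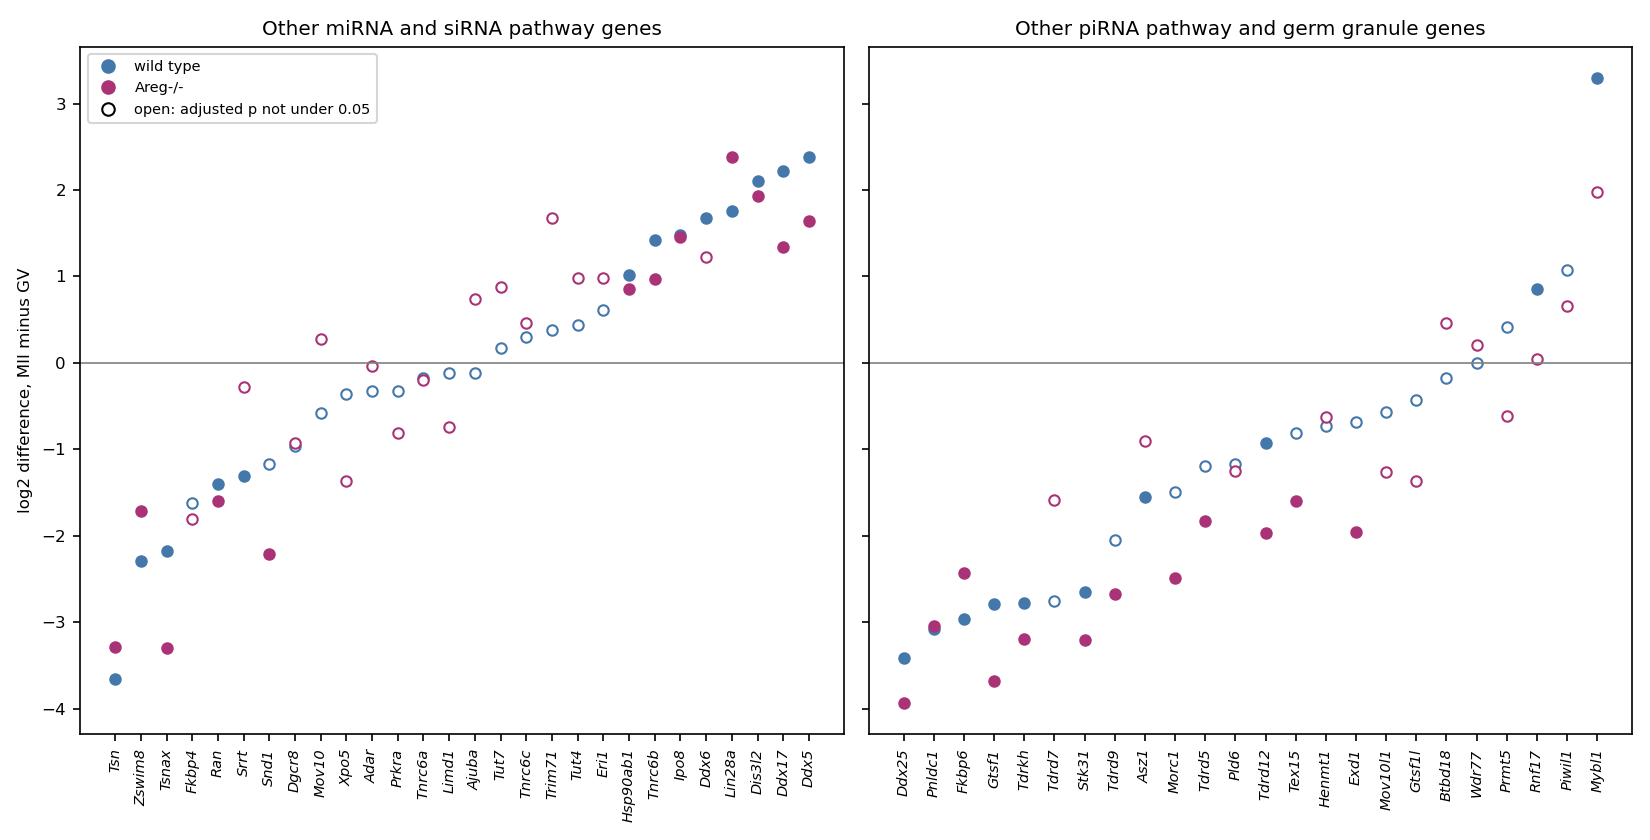
Difference of MII minus GV on the log2 scale for each measured gene of the further miRNA and siRNA list (left) and the further piRNA and germ granule list (right), ordered by the wild-type value, in wild type (blue) and Areg -/- (purple). Open points did not pass limma's test; the left list reaches from -3.65 (Tsn) to 2.38 (Ddx5) in wild type, and the right list is mostly below 0.

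Further piRNA pathway and germ granule genes were read from a list of 29, of which 24 were measured. In wild type 2 of 24 rose and 8 fell, beside 8.97% and 12.6% of all genes. For Areg -/- these counts were 0 rises and 12 falls, beside 13.0% and 15.2%. The median was -1.05 in wild type and -1.59 in Areg -/-, beside 0.20 and 0.30 for all genes. Gtsf1, a zinc finger partner of PIWI proteins, fell by 2.79 ± 0.33 and fell by 3.68 ± 0.33. Ddx25, a germ cell RNA helicase, fell by 3.41 ± 0.32 and fell by 3.93 ± 0.32. The piRNA trimmer Pnldc1 fell by 3.07 ± 0.44 and fell by 3.04 ± 0.44, and Tdrkh, the Tudor protein that recruits it, fell by 2.78 ± 0.66 and fell by 3.20 ± 0.66.

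Fkbp6, a co-chaperone of PIWI proteins, fell by 2.97 ± 0.75 in wild type (-4.61 in the fit with the array spread) and fell by 2.43 ± 0.75 in Areg -/- (-5.31 in that fit). The Tudor protein Stk31 fell by 2.65 ± 0.73 and fell by 3.21 ± 0.73. Tdrd9, a helicase of the pathway, was -2.04 ± 0.78 in wild type without passing (limma adjusted p = 0.089) and fell by 2.67 ± 0.78 in Areg -/- (adjusted p = 0.028). The rises were those of Mybl1, the transcription factor of pachytene piRNA genes (3.29 ± 0.80 in wild type, adjusted p = 0.013, and 1.97 in Areg -/-, which did not pass), and of the Tudor protein Rnf17 (0.86 ± 0.25 in wild type, limma adjusted p = 0.034, and 0.0446 in Areg -/-, which did not pass). Piwil1, another PIWI protein, was 1.07 and 0.66, the helicase Mov10l1 -0.57 and -1.27, and the arginine methyltransferase Prmt5, which marks PIWI proteins for Tudor binding, 0.42 and -0.61, none of which passed. When the array spread was fitted 5 fell in wild type and 6 in Areg -/-, beside 1501 and 859 of all 16579 genes. In that fit the calls of Tdrkh and Stk31 in both genotypes and of Tdrd9 in Areg -/- were lost. Without wild-type MII 1 or MII 3 the wild-type call of Fkbp6 was lost, and the calls of Rnf17 and Stk31 in wild type and of Fkbp6 and Tdrd9 in Areg -/- were each lost without any of several arrays. In both genotype comparisons and the interaction 0 genes of either list passed limma's test. At an unadjusted p under 0.05 there were 0, 3 and 1 of 28 and 1, 2 and 2 of 24 at GV, at MII and for the interaction. The shares of all genes were 3.55%, 6.18% and 4.66% in the same order.

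Each gene's nearest pattern was searched among the 8290 genes at or above the median brightness, by Pearson correlation of log2 values over the 12 arrays, which share the stage difference. Drosha ran closest to Rab4a, a GTPase of endosome recycling (r = 0.99), which was -1.41 in wild type and -3.12 in Areg -/- for MII minus GV. Ago3 ran closest to the kinase gene Tnk2 (0.98), which was 1.26 in wild type and 1.15 in Areg -/-, smaller than the changes of Ago3. Mael ran closest to Pop4, a subunit of ribonuclease P (0.98), which was -3.37 and -3.87, larger than the changes of Mael. Ago2 ran closest to Lix1l (0.94), which was -2.12 and -1.84. Every r given here is the highest among the genes searched, so it is high by selection. Dicer1 ran closest to Top1, a DNA topoisomerase (0.93), Tdrd1 to Supt16, a histone chaperone subunit (0.93), and Ddx4 to Zfp236 (0.92). The dim genes Ago4, Ago1 and Piwil2 ran closest to Adra1a (0.96), Ifi27 (0.89) and Crtc2 (0.83). None of the 10 genes was nearest to another of them, but the dim Ago4, Ago1 and Piwil2 were not among the genes searched. They therefore could not be the nearest gene of any other.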

How the data were processed

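Polysome-bound mRNA of 12 oocyte samples was amplified and hybridised to Affymetrix mouse arrays, per the labels' protocols. The values the authors deposited are log2 intensities. The submitters' processing notes name RMA as the tool. The sources used here do not give its version or the release of the RefSeq-based probe set definition. RMA usually includes quantile normalisation between arrays, but the interquartile ranges of these arrays differed (3.36 to 4.67), so it is not known whether all 12 were normalised together. The table has no detection call. The molecule field of the labels names total RNA, against the source name and protocol, and the description field, which speaks of embryos, was not used.

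Of 23950 probe sets, 64 were controls and 21230 matched 1 symbol in a RefSeq table (GRCm38.p6); 2656 matched none. The probe set with the highest mean stood for a gene, leaving 16579 genes. Columns were matched by accession, with 0 left unused. Limma 3.58.1 (R 4.3.3) was fitted to all 12 arrays with a mean per group, two-sided, and checked on simulated data. The 5 contrasts, each with Benjamini-Hochberg adjustment over all genes, and the alternatives are described with their effect in the closing section. Errors are limma's SE unless SD is named. All 10 genes are named in each comparison; of the further lists, fixed partners and up to 5 called rises and falls per list and comparison are named, each with both genotypes. Members, lists, motifs and tests were chosen with earlier results of these data known. Tarbp2 and Piwil4, also to be named, were not among the genes analysed here.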

Additional observations from a re-analysis of the deposited data

How the results depend on the processing

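The number of the 10 genes called was 3 in each stage comparison and 0 in the other comparisons. It became 5 in wild type with the replicate number as a block (the replicate block, which added Ddx4 and Dicer1). A further quantile normalisation also gave 5 in wild type (the same 2 genes). Of all genes 1588 rose and 2161 fell with the block, and 1903 and 1791 after that normalisation, beside 1487 and 2087 in the main fit. In Areg -/- the number became 5 with array weights (Ago2 and Ago4 were added). Of all genes 3155 rose and 2788 fell there, beside 2150 and 2522 in the main fit. Of the 15 probe sets 4 were called in wild type, and 7 with the replicate block and with the further normalisation. These are the same genes, with Drosha and Ddx4 each counted under 2 probe sets of identical values, so they add no further result. The labels do not say that a number marks shared animals or days. Of 18 same-numbered pairs 10 had a correlation of deviations over 0.1 (-0.12 to 0.26), namely 6 of 6 for number 1, 1 of 6 for number 2 and 3 of 6 for number 3, and 9 were best with their own number (6, 0 and 3), so the numbers were not taken as pairs, while the arrays numbered 1 did deviate together. The block also brought Ddx4 past the threshold in Areg -/-. The other settings were a trended and robust prior, the compared groups alone, bright genes alone, the mean or the lowest probe set of a gene, the array spread (interquartile range) as a covariate, and leaving out each array, and under these the counts of the 10 genes stayed within 1.5 times. The genes behind a count could still change. With the spread covariate Drosha and Mael were lost in wild type and Ddx4 was gained.

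Values that did not pass and that changed sign were these. With the array spread as a covariate, Ago4 was -0.34, -0.17 and 0.13 (wild-type stage, Areg -/- stage, GV genotype), Piwil2 -0.30 and -0.05 (Areg -/- stage, MII genotype), Tdrd1 -0.32 and 0.0761 (Areg -/- stage, GV genotype), Ago2 0.36 and Ddx4 0.46 (interaction), Tnrc6a 0.80 and 1.50 (stage) and Prmt5 0.98 (Areg -/- stage). With quantile normalisation, Ago4 was -0.0265 (wild-type stage) and 0.0265 (GV genotype), Piwil2 -0.24 (Areg -/- stage) and -0.0525 (MII genotype), Ddx4 0.20 (interaction) and Srrt 0.23 (Areg -/- stage). With array weights, Ago3 was -0.22 and Ddx4 0.0786 (interaction), Ago4 0.11 and Tdrd1 0.0284 (GV genotype), and Piwil2 -0.063 (Areg -/- stage). Without the 3 arrays of narrowest spread (Areg -/- MII 2 and 3 and wild-type MII 2), an alternative chosen after seeing the data that leaves 1 Areg -/- MII array assumed to vary like the others, Dicer1 was 0.0050 and Ago1 -0.13 (MII genotype), Tdrd1 0.12 (MII genotype) and 0.13 (interaction), Piwil2 0.34 and Ddx4 0.82 (interaction), and Prmt5 0.54 and Tnrc6a 0.88 (Areg -/- stage). The cause of these turns was not tested. Leaving out single arrays also turned signs. The ranges for MII minus GV in wild type were Ago1 from -0.80 to 0.46, Mov10l1 from -1.69 to 0.34, Prkra from -0.57 to 0.0214 and Tnrc6a from -0.48 to 0.0589. The ranges for that in Areg -/- were Piwil2 from -0.21 to 0.41, Tdrd1 from -0.0965 to 0.52, Prkra from -1.25 to 0.0353, Rnf17 from -0.16 to 0.15 and Tnrc6a from -0.76 to 0.51. The ranges for the genotype difference at GV were Dicer1 from -0.0305 to 0.48, Ago1 from -1.12 to 0.14, Ago4 from -0.17 to 0.17 and Tdrd1 from -0.39 to 0.23. The ranges for that at MII were Ago1 from -0.14 to 0.28, Ago2 from -1.16 to 0.40 and Piwil2 from -0.29 to 0.40. The ranges for the interaction were Ago1 from -0.0315 to 1.23, Ago2 from -0.82 to 0.74, Ago3 from -0.55 to 0.38 and Ddx4 from -0.40 to 0.33.

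Over all genes, 3574 and 4672 were called between stages, 1487 higher and 2087 lower in wild type, which became 1634 and 1501 with the spread covariate. The Areg -/- count was 1809 with that covariate, 2745 without the narrow arrays, 2882 without Areg -/- GV 1 and 3029 without Areg -/- GV 2. The MII genotype count of 10 ranged from 0 (replicate block) to 32 (without Areg -/- MII 1), and the GV count of 0 reached 17 with array weights. The all-gene median in Areg -/- shifted by -0.16 with quantile normalisation and by -0.34 with the spread covariate. The miRNA and siRNA list in Areg -/- had 3 rises and 2 falls with the spread covariate (950 and 859 over all genes). It had 4 rises without Areg -/- GV 2 (1080 over all genes). The piRNA list had 1 rise in 9 wild-type alternatives and 4 Areg -/- alternatives.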
